A study of Mus musculus with 20 samples.

Results

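Small RNA was sequenced from wild-type mouse cortical neurons after oxygen-glucose deprivation (OGD) and after normoxia. Of the 20 libraries of the study, the 10 wild-type ones were compared, 5 after OGD (OGD replicates 1 to 5) and 5 after normoxia (normoxic replicates 1 to 5), taken by the group and number in each sample's description. The neurons came from cortices of embryos at embryonic day 15 and had been cultured for 7 days. The labels give the strain as C57BL/6N-Cdr1asem1Nikr for all samples and the genotype as WT for these 10. Treatment lasted 12 h. Normoxic cultures received medium with 25 mM D-glucose and 0.2 mM sodium pyruvate at 5% CO2 and 37 °C. OGD cultures received the base medium without these additions in a chamber at 1% O2, 5% CO2 and 37 °C. The other 10 libraries came from ciRS-7 (Cdr1as) knockout neurons under the same treatments and stayed out of the wild-type fits. They served for the test of a difference between genotypes and to define the major arm of each precursor. Their own fold changes and arm shifts are also set beside some wild-type results. The labels do not say whether the replicates came from separate animals or cultures, so the p-values measure the spread between these samples, which may be technical.

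OGD models the loss of blood supply to brain tissue in a culture dish, since it removes oxygen and glucose together. A miRNA precursor is cut into a duplex whose strands, the 5p and 3p arms, are named for their side of the hairpin; one arm is usually loaded into Argonaute as the guide and the other is mostly degraded. A guide finds its target messages mainly through its seed, bases 2 to 8 from the 5′ end. miR-210 is induced by hypoxia-inducible factor in most cell types, so its level serves as a check on the oxygen treatment.

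The sequences below are those of the mature forms on which the results turn, with the seed in capitals, as held in RefSeq for mouse; 1246 of the 1478 measured features had a sequence there, and miR-709, miR-124-5p and miR-30b-3p are given by name only. The first line is the hypoxia marker.
miR-210-3p: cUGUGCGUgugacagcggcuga
The next lines are 11 of the 12 features with the largest rises.
miR-12188-5p: uAGAAGAGcuuucgcuggcccaga
miR-3535: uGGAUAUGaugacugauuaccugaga
miR-6238: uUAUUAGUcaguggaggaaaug
miR-6240: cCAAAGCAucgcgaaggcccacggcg
miR-7087-3p: uGCUGGCUcucuccccugccag
miR-6481: cACUGAAAaugcuuagaug
let-7f-2-3p: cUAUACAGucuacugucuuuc
miR-6937-5p: uAGCUGUAagggcugggucugugu
miR-5627-3p: aCAGGGCUcuccggcgccccucgu
miR-690: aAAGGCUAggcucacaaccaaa
miR-5130: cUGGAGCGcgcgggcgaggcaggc
These are other features that rose, shown because normoxic replicate 5 lay with its own group for them.
miR-324-5p: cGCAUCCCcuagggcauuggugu
miR-326-3p: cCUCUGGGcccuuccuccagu
miR-331-3p: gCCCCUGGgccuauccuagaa
miR-345-5p: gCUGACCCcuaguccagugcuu
miR-540-5p: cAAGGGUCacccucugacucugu
miR-130a-3p: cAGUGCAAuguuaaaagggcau
miR-130b-3p: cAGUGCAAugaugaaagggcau
These are features that fell, followed by let-7a-1-3p, which is compared with let-7f-2-3p.
miR-410-5p: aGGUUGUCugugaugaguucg
let-7c-1-3p: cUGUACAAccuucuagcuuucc
miR-148a-5p: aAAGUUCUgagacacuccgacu
miR-671-3p: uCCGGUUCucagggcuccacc
miR-26a-2-3p: cCUGUUCUugauuacuuguuuc
miR-409-3p: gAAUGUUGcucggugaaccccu
miR-370-3p: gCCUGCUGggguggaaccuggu
miR-296-5p: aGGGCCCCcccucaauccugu
miR-125b-1-3p: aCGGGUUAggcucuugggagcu
miR-129-5p: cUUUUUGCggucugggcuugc
miR-128-3p: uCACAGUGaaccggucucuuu
let-7a-1-3p: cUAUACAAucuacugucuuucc

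Recovered totals were 2492065 to 9117862 miRNA reads per library in normoxia and 1160582 to 4374002 after OGD, so the OGD libraries were shallower. A floor of 3 reads stood at 0.355 to 1.13 CPM (counts scaled to a common library size) in normoxia and 0.734 to 2.54 CPM after OGD, and covers counting error only. One library stood apart. On the first principal component of the 425 well-measured features, those averaging 3 or more as log2(CPM + 0.5) (84.4% of the variance), normoxic replicate 5 lay at 0.681, the other normoxic libraries at 13.6 to 15.1 and the OGD libraries at -8.41 to -14.8. Its median correlation was 0.963 with its own group and 0.970 with the OGD group. The neuronal identity of the cultures was checked on markers: miR-9-5p held 228536 to 306239 CPM over the 10 libraries, miR-128-3p 34669 to 80862 and miR-124-3p 2725 to 6452. The leukocyte and microglial markers miR-142a-3p and miR-223-3p reached at most 1.96 CPM in any library. The endothelial marker miR-126a-3p stood at 298 to 376 CPM in normoxia and 275 to 360 CPM after OGD, and the mural and fibroblast marker miR-143-3p at 33.5 to 41.3 and 33.5 to 55.4 CPM. Summed over whole lists, the 2 endothelial forms reached 308 to 385 CPM in normoxia and 293 to 379 CPM after OGD, the 10 mural and fibroblast forms 91.0 to 158 and 116 to 172 CPM, the 7 oligodendrocyte forms 109 to 140 and 81.1 to 110 CPM, and the 2 red blood cell forms at most 5.07 CPM in any library. Their part in the results was not tested.

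miR-210-3p, encoded on chromosome 7 (mm10, 141221407 to 141221428, minus strand), rose after OGD. It measured 19.0, 16.5, 28.6, 14.3 and 12.8 CPM in normoxic replicates 1 to 5 and 127, 126, 126, 110 and 47.0 CPM in OGD replicates 1 to 5. The groups did not overlap, OGD replicate 5 was the lowest of its group, and normoxic replicate 5 was the lowest of all 10 libraries. The log2 fold change was 2.49 (SE 0.26; limma, adjusted p = 1.05e-06; higher in 5 of 5 OGD libraries), and without normoxic replicate 5 it was 2.38. The other arm, miR-210-5p, gave 0 to 3 reads per library in normoxia and 1 to 19 after OGD. In libraries of whole cultures, as here, fewer cells of a type and less RNA per cell cannot be told apart.

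Across the 1478 features, 341 passed an adjusted p of 0.05 in limma (23.1%), of which 276 were higher after OGD (18.7%) and 65 lower (4.4%). In simulated data, more of the calls were false than this threshold allows, more so when changes were drawn from all features averaging at least 10 reads than from well-measured ones outside the most abundant; why was not tested. Without normoxic replicate 5 the count was 341 with 272 higher and 69 lower, and 312 calls were shared. The direction depends on how libraries are scaled. Centring each library on its median over all features moved all fold changes by 0.75 on the log2 scale and gave 90 higher and 375 lower; centring on the well-measured features moved them by 0.56 and gave 108 higher and 265 lower; quantile normalization moved their median by 0.45 and gave 141 higher and 191 lower. A total of 152 features were called in the same direction on the CPM scale and in all 3 of these scalings, 89 higher (6.02%) and 63 lower (4.26%). Such features are here said to rise or fall in all scalings.

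**Figure D1:**
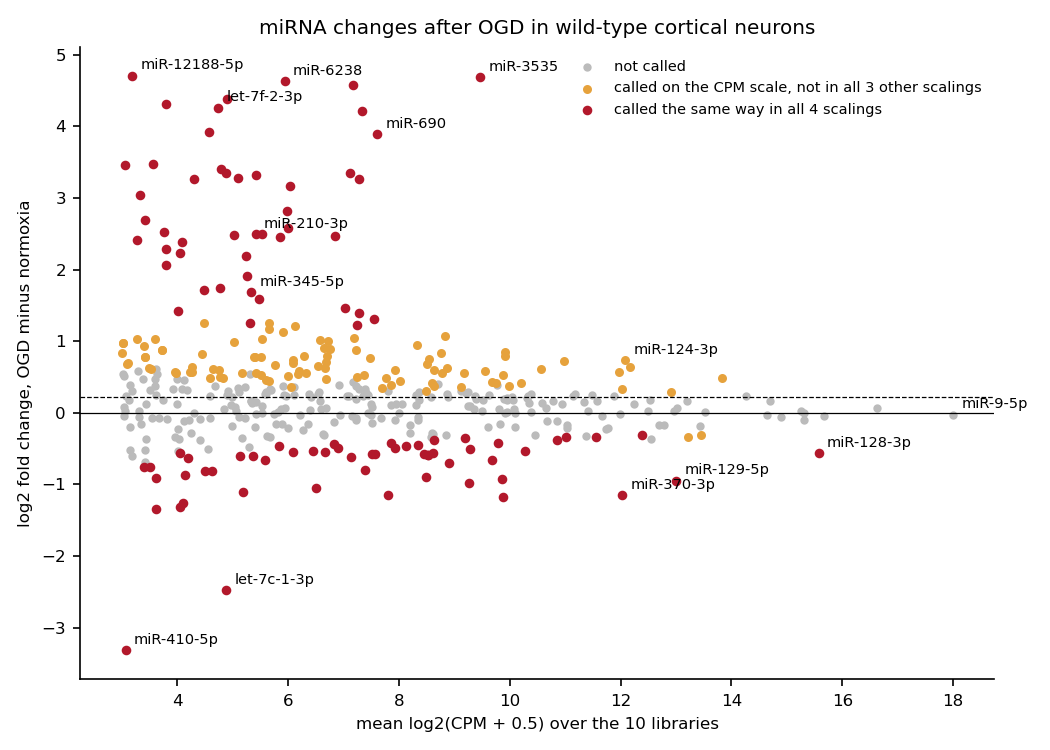
The log2 fold change (OGD minus normoxia) is plotted against the mean log2(CPM + 0.5) for the 425 well-measured features; the dashed line is their median fold change of 0.22. Features called in the same direction in all 4 scalings (red) include rises up to 4.71 among features below a mean of 10, while 9 of the 10 most abundant features of normoxia lie near 0 on the CPM scale, the other being miR-128-3p at -0.57.

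The largest rises were sought among features averaging 3 or more on the log2 scale over both groups, which rare features such as miR-12188-5p and miR-5130 passed through their OGD libraries. All 12 of those with the largest fold change among well-measured features rose in all scalings: miR-12188-5p, miR-3535, miR-6238, miR-6240, miR-7087-3p, miR-6481, let-7f-2-3p, miR-6937-5p, miR-5627-3p, miR-690, miR-709 and miR-5130, with log2 fold changes from 4.71 down to 3.47. miR-3535 was the most abundant of them. It measured 89.1, 89.1, 101, 108 and 599 CPM in normoxia and 2807, 3162, 5073, 3401 and 3938 CPM after OGD. The groups did not overlap, as in 27.3% of the 425 features when OGD is the higher group, and normoxic replicate 5 lay above the other 4 by a wide margin; the change on the log2 scale was 4.69 (SE 0.38, adjusted p = 1.78e-07 in limma), and 5.21 without that library. miR-6240 measured 15.3, 19.5, 16.9, 22.4 and 182 CPM in normoxia and 470, 664, 1095, 738 and 705 CPM after OGD. miR-690 measured 27.9, 34, 21.7, 36.1 and 423 CPM in normoxia and 608, 671, 1063, 623 and 907 CPM after OGD. Both show the same layout, 4 low normoxic libraries, 1 in between and 5 high OGD libraries.

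Normoxic replicate 5 took that middle place for each of the 12. On the log2 scale it lay 46.5% to 89.1% of the way from the mean of the other 4 normoxic libraries to the OGD mean. The sum of the 12 was 173 to 221 CPM in normoxic replicates 1 to 4, 1796 CPM in normoxic replicate 5 and 4901 to 9636 CPM after OGD. miR-5130 was the only one of the 12 whose groups overlapped: normoxic replicate 5 held 19.5 CPM and OGD replicate 1 held 14.9 CPM. The part of this library's difference from its group in these results was not tested. Leaving it out raised the log2 fold change of each of the 12, to between 4.16 (miR-709) and 5.33 (miR-6238). The knockout libraries, which are separate samples, gave log2 fold changes of 2.42 to 4.09 for the same 12 features.

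The mapped places of these sequences were diverse. miR-3535 lies on chromosome 1 (86352062 to 86352087, minus strand) inside the snoRNA gene Gm24148, within an intron of Ncl, which encodes nucleolin. miR-6481 is annotated on chromosome 3 (99199367 to 99199385, minus strand), and its sequence is also a stretch of mt-Tf, the mitochondrial phenylalanine tRNA gene. miR-690 lies in an intron of Fgf12 on chromosome 16, miR-6937-5p in an intron of Adi1 on chromosome 12 and miR-7087-3p in an intron of Sidt2 on chromosome 9. miR-12188-5p and miR-5130 lie within exons of Clcn7 on chromosome 17 and Kctd12 on chromosome 14. Reads shared between a miRNA entry and another RNA with the same sequence cannot be told apart.

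let-7f-2-3p, from an intron of Huwe1 on chromosome X (151912403 to 151912423), differs from the more abundant let-7a-1-3p by A8G over their shared length, counted from the 5′ end with the base of let-7a-1-3p first. Their changes were opposite. let-7f-2-3p measured 3.1, 3.6, 4.4, 4.9 and 21.4 CPM in normoxia and 70.2, 106, 127, 111 and 208 CPM after OGD (change of 4.26 on the log2 scale, SE 0.38; adjusted p = 2.80e-07 in limma). let-7a-1-3p measured 534, 496, 492, 414 and 351 CPM in normoxia and 386, 302, 269, 275 and 280 CPM after OGD (change of -0.59, SE 0.13; adjusted p = 0.00272 in limma). Reads of let-7f-2-3p were 0.576% to 1.18% of those of let-7a-1-3p in normoxic replicates 1 to 4, 6.10% in normoxic replicate 5 and 18.2% to 74.3% after OGD. let-7a-1-3p and let-7c-2-3p have the same sequence and the same reads and count as 1 measurement. Of 20 pairs of features that differed by 1 base over at least 18 shared bases, each with a mean of at least 1 CPM, this was the only sequence pair called in opposite directions.

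A second set of rises had normoxic replicate 5 at the level of its own group. Among the 47 well-measured features that rose in all scalings (11.1% of 425), 9 had this library no more than 25% of the way to the OGD mean, as had 94 of all 144 well-measured features called higher on the CPM scale and 10 of the 12 largest falls; this set was picked after its values were seen. They were miR-210-3p, miR-540-5p, miR-345-5p, miR-324-5p, miR-324-3p, miR-326-3p, miR-331-3p, miR-130a-3p and miR-130b-3p. miR-345-5p measured 22.9, 18.8, 27.4, 19.6 and 22.9 CPM in normoxia and 67.7, 52.0, 103, 65.7 and 82.4 CPM after OGD (log2 fold change 1.69 with an SE of 0.18, adjusted p = 1.44e-06 in limma). miR-324-5p, from an exon of Dvl2 on chromosome 11, measured 22.6 to 28.7 CPM in normoxia and 66.8 to 102 CPM after OGD, a log2 fold change of 1.59. Its other arm, miR-324-3p, measured 7.6 to 12.2 and 20.8 to 35 CPM, a log2 fold change of 1.41. Both arms of this precursor thus rose, without overlap of the groups.

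miR-326-3p, from an intron of Arrb1 on chromosome 7, measured 68.3 to 89.5 CPM in normoxia and 192 to 275 CPM after OGD, a log2 fold change of 1.46. miR-331-3p, from Vezt on chromosome 10, measured 90.7 to 115 and 201 to 260 CPM, a log2 fold change of 1.23. miR-130a-3p and miR-130b-3p share the seed AGUGCAA and come from chromosomes 2 and 16. miR-130a-3p measured 113 to 131 CPM in normoxia and 246 to 380 CPM after OGD, and miR-130b-3p 23.3 to 26.7 and 56.4 to 65.9 CPM. Their log2 fold changes were 1.30 (SE 0.12) and 1.26 (SE 0.13). In the knockout libraries the same 9 features had log2 fold changes of 1.11 to 2.08.

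**Figure D2:**
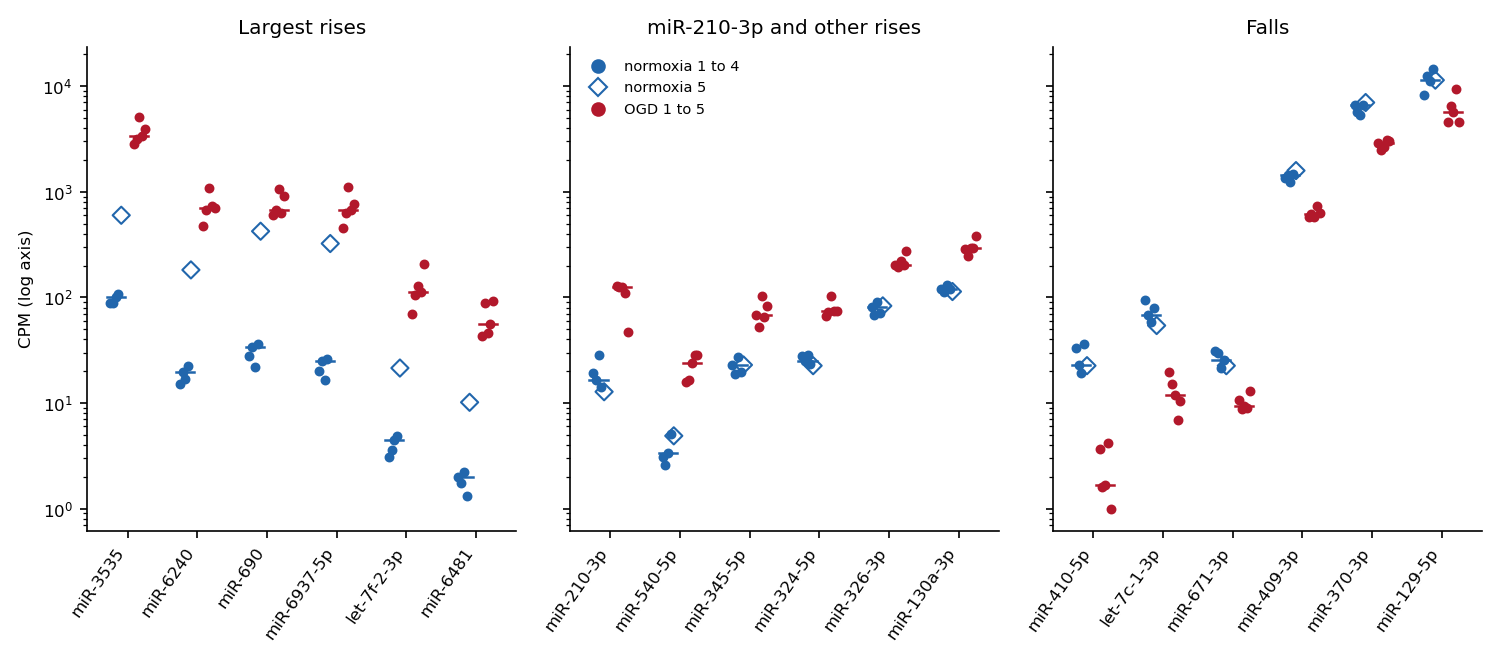
CPM of 18 features is plotted on a log axis for each of the 10 libraries, with a bar at each group's median; normoxic replicate 5 is the open diamond. It lies between the groups for the largest rises in the left panel, for example at 599 CPM for miR-3535, and with the other normoxic libraries for miR-210-3p and most features of the other panels.

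The falls were smaller in size than the largest rises, and the 12 largest fell in all scalings. miR-410-5p, the minor arm of a Mirg cluster miRNA, measured 33.0, 23.1, 19.1, 36.3 and 22.6 CPM in normoxia and 3.7, 1.6, 1.7, 4.2 and 1.0 CPM after OGD. Its log2 fold change was -3.32 (SE 0.31; limma, adjusted p = 3.56e-07), but it rested on 2 to 15 reads in each OGD library. let-7c-1-3p, the passenger arm of a let-7 precursor in an intron of Mir99ahg, measured 94.4, 67.9, 58.3, 79.3 and 54.1 CPM in normoxia and 19.6, 15.2, 11.8, 6.9 and 10.5 CPM after OGD (log2 fold change -2.47 with an SE of 0.23, adjusted p = 3.94e-07 in limma). miR-671-3p, whose 5p partner is known for cleaving ciRS-7, measured 21.4 to 31.3 CPM in normoxia and 8.8 to 13 CPM after OGD, a log2 fold change of -1.32. The groups did not overlap for these. miR-148a-5p (-1.35), miR-26a-2-3p (-1.25) and miR-296-5p (-1.05) fell as well; the call of miR-26a-2-3p was lost when libraries were thinned to equal depth (adjusted p = 0.127).

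Several abundant miRNAs were among the falls. miR-129-5p, a brain miRNA with copies on chromosome 2 and at a second locus, measured 8161, 12590, 11278, 14529 and 11394 CPM in normoxia and 4525, 6426, 5722, 9354 and 4603 CPM after OGD, with overlap of the groups (log2 fold change -0.95 with an SE of 0.17, adjusted p = 0.000439 in limma). miR-370-3p, from the imprinted domain of chromosome 12, measured 6689, 5704, 5339, 6642 and 6994 CPM in normoxia and 2896, 2481, 2631, 3076 and 3010 CPM after OGD, without overlap (log2 fold change -1.15 with an SE of 0.10, adjusted p = 2.31e-07 in limma). miR-409-3p fell from 1243 to 1586 CPM in normoxia to 574 to 738 CPM after OGD, and miR-125b-1-3p from 663 to 1101 CPM to 385 to 510 CPM. miR-543-3p and miR-328-3p fell by 0.93 and 0.66 on the log2 scale. miR-128-3p, a neuronal guide and the third most abundant miRNA in normoxia, measured 80862, 57485, 53282, 45162 and 65906 CPM in normoxia and 41978, 38236, 41880, 34669 and 44149 CPM after OGD. All 5 OGD values were below the lowest normoxic one, and the change was -0.57 on the log2 scale (SE 0.13, adjusted p = 0.00265 in limma).

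The other 9 of the 10 most abundant miRNAs of normoxic neurons had CPM changes close to 0; another scaling changed the sign for miR-99a-5p, miR-9b-3p, miR-26a-5p, let-7i-5p and let-7f-5p and put miR-9-5p at 0. miR-9-5p averaged 264741 ± 26726 CPM (SD, n = 5) in normoxic and 260221 ± 26357 CPM (SD, n = 5) in OGD libraries. miR-99a-5p, let-7i-5p, let-7g-5p, let-7f-5p, miR-9b-3p, miR-125b-5p, let-7c-5p and miR-26a-5p had log2 fold changes between -0.09 and 0.17 with adjusted p of 0.148 or more on the CPM scale (limma); centring on the median of all features put each of the 9 at -0.58 to -0.85. Apart from miR-3535, none of the called rises among the 100 most abundant features kept its call after either centring. miR-124-3p, the neuronal guide, measured 3485, 3300, 4087, 3280 and 2725 CPM in normoxia and 5709, 5193, 5512, 5134 and 6452 CPM after OGD, a log2 fold change of 0.74 (SE 0.11, adjusted p = 3.77e-05 in limma) that became -0.01 with that centring. miR-30b-5p (0.79), miR-129-2-3p (0.85), miR-16-5p (0.72) and miR-7a-5p (0.64) were likewise called on the CPM scale and not after either centring; miR-16-5p and miR-7a-5p changed sign in the centring on all features.

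The ratio of the 2 arms of a precursor within a library does not depend on scaling. It was tested for 190 precursors whose arms each averaged at least 1 CPM. In 86 of them the ratio changed (limma, adjusted p under 0.05; 45.3%), with the 5p arm falling relative to 3p in 47 (24.7%) and rising in 39 (20.5%). Both directions were common for the rarer arm: relative to the major arm, as defined in knockout normoxic libraries, the minor arm was lower after OGD in 39 of the 86 and higher in 47. All 86 had the same sign in the knockout libraries, where 65 were also called. In 13 precursors both arms were called on the CPM scale in opposite directions. In 5 of them, miR-124, miR-1843a, miR-27a, miR-30b and miR-361, both calls held whichever library was left out; for miR-132 they held in 1 of the 10 such fits, for miR-130b in 3, for miR-410 in 7 and for miR-212 in 9. These counts of single arms do depend on the scaling.

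miR-485, a Mirg cluster miRNA, had one of the largest shifts. Its 5p arm made up 88.9%, 90.9%, 92.2%, 91.3% and 86.7% of reads in normoxia and 64.2%, 62.0%, 62.5%, 61.1% and 59.6% after OGD. The log2 ratio of 5p to 3p changed by -2.40 (SE 0.16; limma, adjusted p = 1.81e-06); the 3p arm rose in all scalings (2.06), while the 5p arm had a log2 fold change of -0.33 and was not called. The 5p share of miR-410 went from 2.2% to 4.6% in normoxia to 0.1% to 0.5% after OGD (-3.73, SE 0.35), and that of miR-27a from 2.8% to 5.4% to 0.3% to 1.0% (-2.69, SE 0.31). For miR-124 the 5p share was 12.1%, 9.1%, 8.2%, 9.2% and 7.3% in normoxia and 3.2%, 2.4%, 2.8%, 2.6% and 2.2% after OGD (-1.89, SE 0.18). The activity-regulated pair encoded together, miR-212 and miR-132, moved the same way: 5p shares of 81.7% to 87.5% and 54.1% to 68.6% for miR-212 (-1.86, SE 0.20), and 26.2% to 39.2% and 18.7% to 24.6% for miR-132 (-0.94, SE 0.18). None of these shares overlapped between groups, as was the case for 28.4% of the 190 precursors in either direction.

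Shifts toward the 5p arm were seen for miR-30b (1.90, SE 0.18), miR-540 (1.85, SE 0.22), miR-770 (1.59, SE 0.14), miR-671 (1.51, SE 0.26), miR-345 (1.5, SE 0.17) and miR-181d (1.4, SE 0.32). The miR-181d shift rested on 1 to 13 reads of the 3p arm in each OGD library. For miR-345 the 5p share was 13.1%, 12.7%, 15.5%, 11.5% and 15.5% in normoxia and 30.0%, 26.5%, 36.5%, 29.4% and 33.5% after OGD, with the 3p arm at a log2 fold change of 0.19 that was not called. For miR-671 it was 16.7% to 25.8% and 29.7% to 51.9%. miR-361 changed its major arm, from 29.5% to 33.9% of reads on 5p in normoxia to 50.8% to 57.7% after OGD (1.37, SE 0.13). The remaining shifts among the 6 largest toward 3p were those of miR-669c (-2.89), miR-466h (-2.10) and miR-3066 (-1.98). All rested on few reads. miR-669c-3p had 10, 16, 14, 0 and 29 reads in normoxic replicates 1 to 5. Per library, miR-466h had 0 to 6 reads on 5p and 2 to 19 on 3p. miR-3066 is a pair of rare arms whose groups overlapped. Its adjusted p (limma) rose to 0.0576 when normoxic replicate 1 was left out, 0.0513 without OGD replicate 2 and 0.0526 without normoxic replicate 5.

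**Figure D3:**
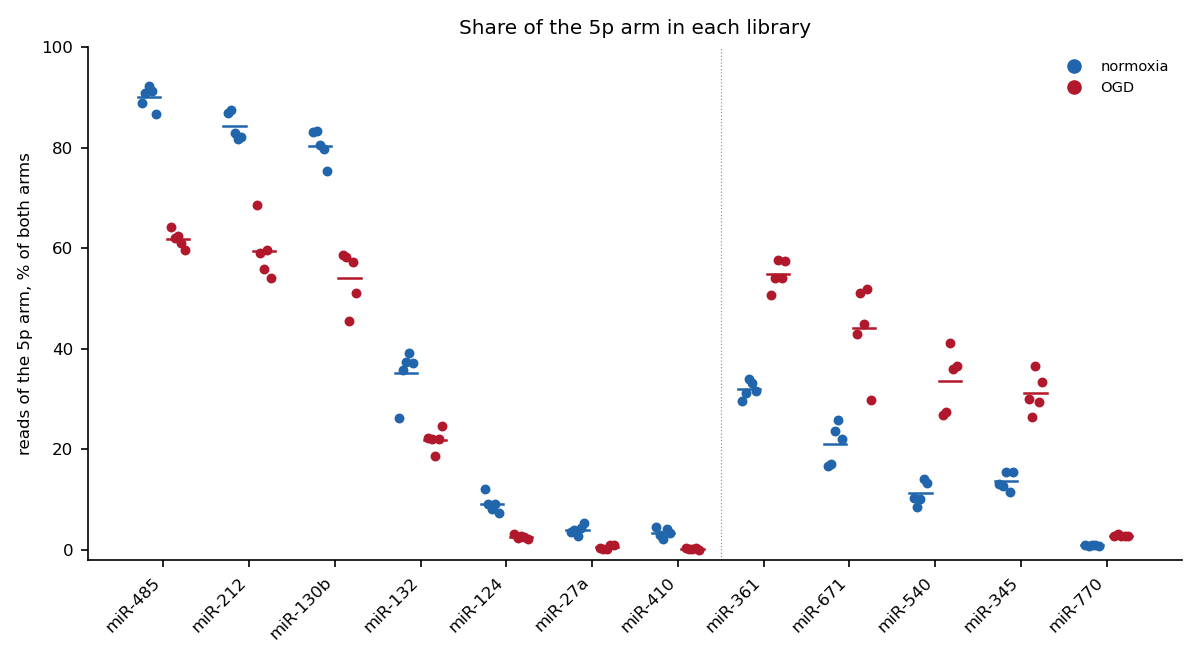
Each point is the share of 5p reads among the reads of both arms in 1 library, with a bar at the mean of the 5 libraries of a group. The 7 precursors left of the dotted line, such as miR-485 at 86.7% to 92.2% in normoxia and 59.6% to 64.2% after OGD, moved toward 3p, and the 5 on the right moved toward 5p.

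The imprinted Dlk1-Dio3 domain of chromosome 12 encodes many brain miRNAs on maternally expressed transcripts. The Mirg cluster did not move as a unit. Of its 74 mature forms, 13 were called higher and 7 lower on the CPM scale (18.7% and 4.4% of all features), and 2 rose and 7 fell in all scalings. The median log2 fold change of the 74 was 0.17, against 0.32 for all 1478 features. Of the 74, 44 were well measured, with a median of 0.17 against 0.22 for all 425 such features. Among these 44, 11 were called higher and 7 lower, against shares of 33.9% and 13.4% of the 425. The 7 falls in all scalings were all among the 44, and 12.9% of the 425 fell in all scalings. miR-485-3p (2.06) and miR-376a-3p (1.75) rose, and miR-410-5p, miR-409-3p, miR-543-3p, miR-411-3p (-0.90), miR-379-3p (-0.58), miR-412-5p (-0.54) and miR-369-5p (-0.50) fell. The fall of miR-379-3p missed the threshold when libraries were thinned to equal depth (adjusted p = 0.0603). The Rtl1 locus holds 12 forms, 10 from the strand antisense to Rtl1 and the arms of miR-3071 from its own strand. Of the 10, 3 were called higher and 3 lower, none rose in all scalings, and miR-433-3p (-0.53) and miR-434-3p (-0.34) fell in all scalings. At the proximal end of the domain, miR-540-5p (2.41), miR-770-5p (1.72) and the rarer miR-665-3p (2.73) rose in all scalings, while miR-673-3p (-0.63) and miR-337-5p (-0.39) fell; without normoxic replicate 2 miR-337-5p missed the threshold (adjusted p = 0.0501 in limma).

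**Figure D4:**
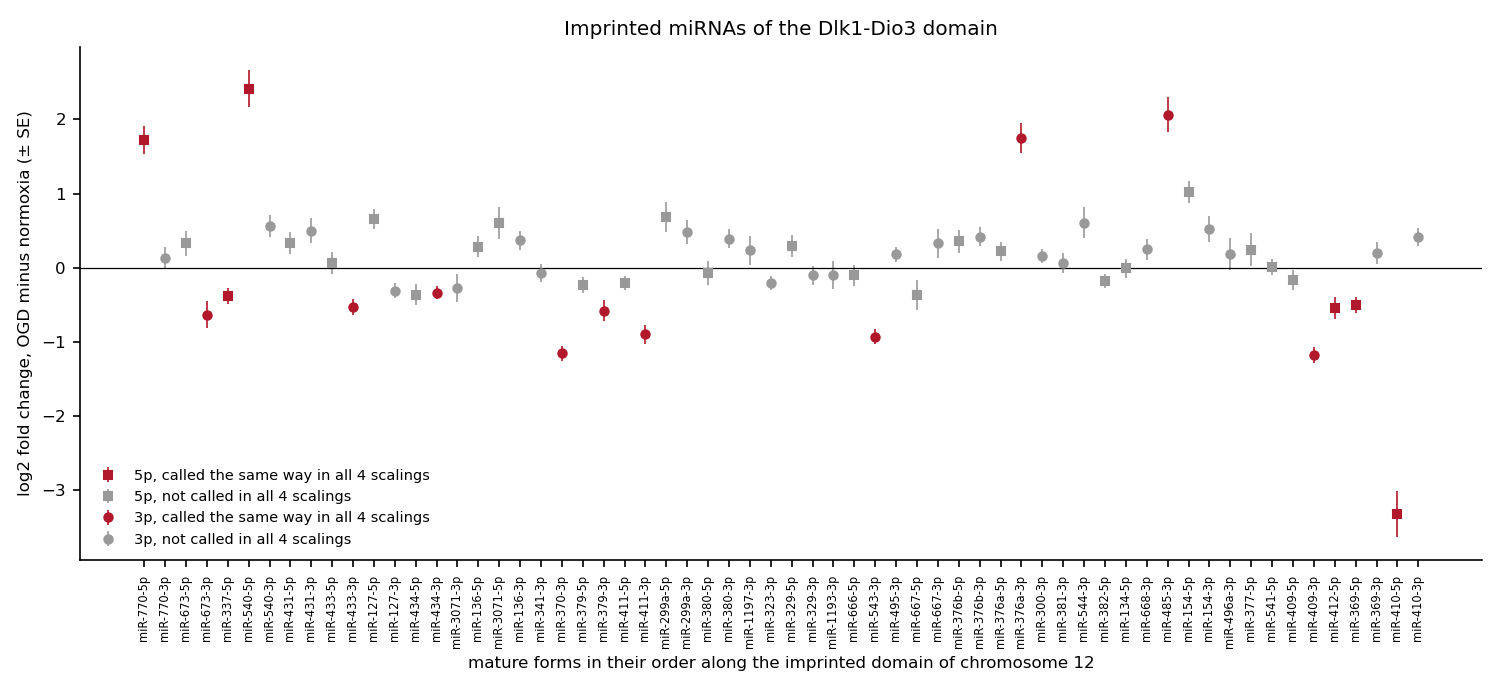
The log2 fold change (± SE) of 62 well-measured mature forms is plotted in their order along the imprinted domain from miR-770 to miR-410, squares for 5p and circles for 3p. Red marks the 4 that rose and the 12 that fell in all 4 scalings.

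The counts of other families are read against the same shares of all 1478 features, 18.7% called higher and 4.4% lower on the CPM scale, 6.02% higher and 4.26% lower in all scalings, and against the median log2 fold change of 0.32. Among the 425 well-measured features the shares were 33.9% and 13.4% on the CPM scale and 11.1% and 12.9% in all scalings, with a median of 0.22. These are the closer shares for let-7 (18 of 20 forms well measured), the neuronal list (12 of 12), miR-30 (11 of 11) and miR-181 (8 of 10). With let-7a-1-3p and let-7c-2-3p as 1 measurement, 3 of the 20 let-7 family forms were called higher and 4 lower; in all scalings let-7f-2-3p rose and 3 fell, let-7c-1-3p, let-7a-1-3p and let-7b-3p (its call was lost without OGD replicate 3, 4 or 5 or normoxic replicate 1, 2 or 5, adjusted p 0.0503 to 0.102 in limma), while none of the 9 guide (5p) forms changed in all scalings. Of the 12 listed forms of neuronal miRNAs (miR-9, 124, 128, 129, 137, 138, 153 and 218), 2 were called higher on the CPM scale, miR-124-3p and miR-138-5p, and neither kept its call after centring on all features. The list leaves out 8 arms numbered by gene copy, of which miR-129-1-3p (0.90) and miR-129-2-3p (0.85) were called higher on the CPM scale, neither in all scalings, and the rare miR-128-1-5p (-1.70) fell in all of them, a call lost after thinning (adjusted p = 0.137 in limma). In all scalings, 4 of the 12 fell: miR-124-5p (-1.15), miR-129-5p, miR-153-5p (-0.82) and miR-128-3p. Of the 26 forms of miR-17-92 and its paralogues, a family known for promoting cell growth, 6 were called higher (18.7% of all features were) and none lower, with a median log2 fold change of 0.31 against 0.32 for all 1478, and none rose in all scalings. All 6 were among its 13 well-measured forms, whose median was 0.46 against 0.22 for the 425. Of those 425, 33.9% were called higher and 11.1% rose in all scalings. The miR-30 family had 3 higher and 3 lower of 11, and the miR-181 family 4 higher and 3 lower of 10; in all scalings 0 rose in either and 3 fell in each: miR-30b-3p (-1.11), miR-30c-1-3p (-0.87) and miR-30c-5p (-0.31), and miR-181d-3p (-1.07), miR-181b-1-3p (-0.66) and miR-181a-1-3p (-0.42). After thinning all but miR-30b-3p missed the threshold (adjusted p = 0.115 for miR-30c-1-3p, 0.0814 for miR-30c-5p, 0.166 for miR-181d-3p, 0.177 for miR-181b-1-3p and 0.0882 for miR-181a-1-3p in limma). With 1 library left out, miR-30c-5p and miR-181d-3p kept their calls only without OGD replicate 1 or normoxic replicate 5, and miR-181a-1-3p only without those or normoxic replicate 4 (adjusted p up to 0.110, 0.112 and 0.0801 in the other fits).

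For miR-7 and miR-671, the 5p arms are those known for binding ciRS-7. Of their 7 mature forms, miR-7a-5p was called higher on the CPM scale and after quantile normalization but not after either centring. The 3p arms miR-671-3p and the rare miR-7b-3p were lower in all scalings. miR-7b-5p averaged 11888 ± 1263 CPM (SD, n = 5) in normoxic libraries and 10484 ± 1078 CPM (SD, n = 5) in OGD libraries (adjusted p = 0.210 in limma). miR-7b-3p averaged 2.56 ± 0.743 CPM in normoxic libraries (SD, n = 5), and its call was lost after thinning (adjusted p = 0.373), on the deposited values (0.106) and when any 1 of 6 libraries was left out (OGD replicates 1, 3 and 4, normoxic replicates 1, 2 and 4; adjusted p 0.0632 to 0.102). None of the 5 forms of miR-103 and miR-107, which target Dicer, was called. Only 2 of the 5 were well measured, miR-103-3p (0.02) and miR-107-3p (0.38, adjusted p = 0.0720 in limma). Of the 12 forms linked to injury and inflammation, only 3 were well measured, 1 was called higher on the CPM scale and none rose in all scalings. The families miR-297, 466, 467 and 669, known from a cluster in an intron of Sfmbt2, also have members elsewhere, such as miR-466i on chromosome 13. Of their 74 forms 31 were called higher and none lower, or 25 of 64 with identical reads counted once, with a median of 0.75 over the 74; 10 rose in all scalings (6.02% of all features did), including miR-466i-5p, at 54.4 ± 32.1 CPM in normoxia and 280 ± 69.1 CPM after OGD. Many members of these families share sequence or have identical reads, so they are not separate measurements, and normoxic replicate 5 lay 52.9% of the way to the OGD mean for miR-466i-5p.

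**Figure D5:**
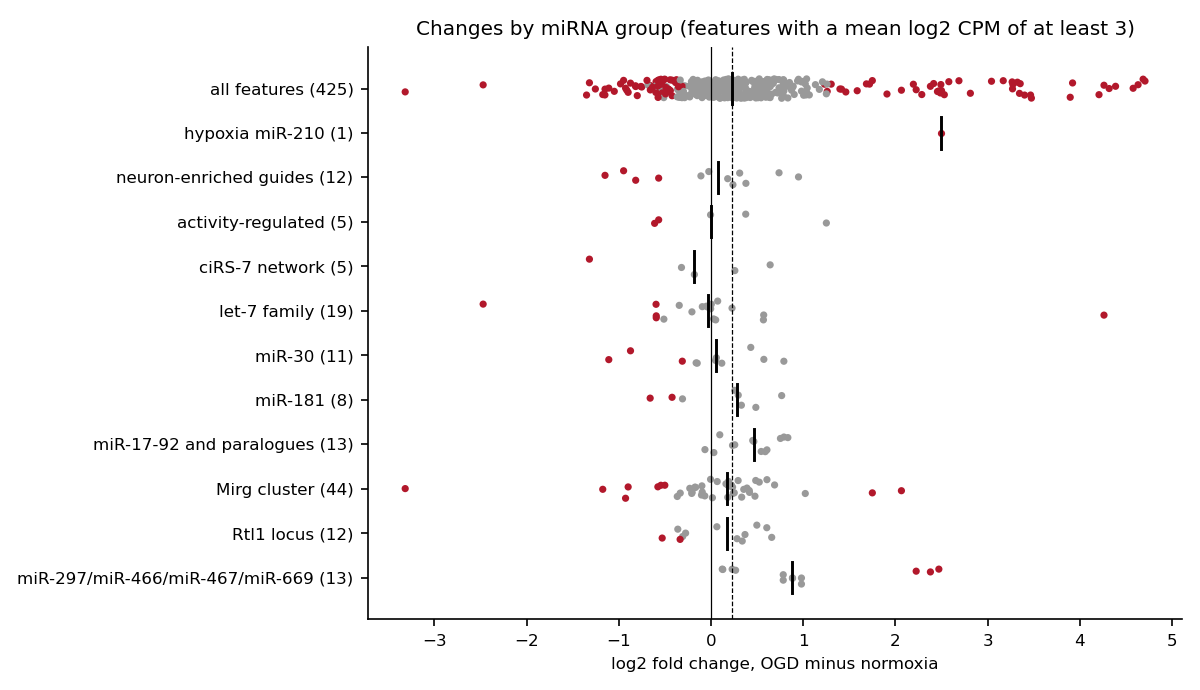
Each point is the log2 fold change of 1 well-measured feature, grouped by family or cluster, with the number of features in parentheses, the group's median as a black bar and the median of all 425 as the dashed line. Red points changed in the same direction in all 4 scalings. The mean that sets which features are shown is over both groups, so a rare feature that is high after OGD can enter through that group.

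The OGD effect was then compared between genotypes: no feature of 1476 was called as different between wild-type and knockout neurons in its OGD effect (limma interaction over 20 libraries, 0 at an adjusted p under 0.05, 73 at an unadjusted p under 0.05). The smallest adjusted p was 0.147, for miR-6364. Leaving out wild-type OGD replicate 1 gave 1 call. No arm ratio of 186 was called either, with 10 at an unadjusted p under 0.05. Differences that miss the threshold are not shown to be absent.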

How the data were processed

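Small RNA libraries were made with a NEBNext kit and size selection, per the labels' protocols; the submitters' processing notes name mm10, and the aligner and counting method are not given in the sources used here. The authors deposited the values as log CPM, but they are a score: each is reads times a library factor, raised to a power of 0.118, with the extremes of each group of 5 limited at quantiles 0.16 and 0.84. Undoing both steps gave whole reads for 100% of values (within 0.05; 75.3% without restoring the extremes). This was worked out from the deposited score, not from a label. All values were kept; 25.2% were 0 reads.

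CPM was computed with the authors' library factors. limma 3.58.1 (R 4.3.3; lmFit, eBayes with trend) was run on log2(CPM + 0.5), 5 against 5 libraries, with two-sided p-values adjusted by Benjamini-Hochberg across the 1478 features and no block. Fold changes on this scale understate those of rare features. Well-measured means a mean log2(CPM + 0.5) of at least 3. No pair of replicates agreed within sampling noise (lowest chi-square per degree of freedom 17.8). Named features are the 12 largest called changes in each direction among well-measured features, the 10 most abundant in normoxia, the 6 largest called changes in each direction among the 100 most abundant, the 6 largest arm shifts in each direction, called list members and features sharing a seed with the first set; others were chosen after their values were seen, such as the second set of rises and the arm shifts of miR-124, miR-132, miR-212, miR-130b and miR-361. Members and lists were chosen with earlier results of these data known. Alternatives covered scaling, pseudocount, filter, depth, test, block and leaving out each library. The fit was tested on simulated data whose changes were limited to well-measured features outside the most abundant ones; this was narrowed after a first version, which drew changes from all features averaging at least 10 reads, missed the share of changes it was set to recover and made more false calls. In both versions the false share of calls exceeded the threshold of 0.05, and more so in the first, which bears on the count of calls over all features. Sequences and mature positions came from RefSeq and GENCODE M21 (mm10).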

Additional observations from a re-analysis of the deposited data

Results flagged for a closer look

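In groups of 5 libraries, a value was singled out where its gap to the nearest other library exceeded 0.71 of the group's range; chance does this in about 1 in 20 groups, and 84 groups of 42 features were looked at, of which 15 were singled out. In normoxia, 12 of these were the highest value of normoxic replicate 5, for the 12 features with the largest rises: 7.52 CPM for miR-12188-5p (0.237 to 1.11 in the other 4), 599 for miR-3535 (89.1 to 108), 86.1 for miR-6238 (5.67 to 10.5), 182 for miR-6240 (15.3 to 22.4), 59.0 for miR-7087-3p (2.46 to 4.85), 10.1 for miR-6481 (1.32 to 2.22), 21.4 for let-7f-2-3p (3.08 to 4.89), 323 for miR-6937-5p (16.5 to 26.3), 42.1 for miR-5627-3p (2.22 to 4.14), 423 for miR-690 (21.7 to 36.1), 23.3 for miR-709 (0.739 to 2.37) and 19.5 for miR-5130 (0.564 to 1.62). These features share libraries, so the 12 are not separate events. After OGD, replicate 5 was low for miR-210-3p at 47.0 CPM (110 to 127 in the others). OGD replicate 1 was high for miR-30b-3p at 34 CPM (21.1 to 24.0) and for miR-9-5p at 306239 CPM (244227 to 258469). What sets these libraries apart was not tested.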

How the results depend on the processing

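The number of called features kept within 1.5 times of 341 in all planned and added alternatives except a filter on a mean log2 CPM of at least 3 (223 calls of 425, fewer features tested) and limma voom on the recovered reads (693, of which 626 higher; the cause was not tested); thinning to 1160582 reads gave 242, the deposited values 477 and leaving out 1 library 262 to 341. Arm ratios called were 53 after thinning (fewer reads) and 69 to 84 without 1 library. The genotype difference gave 0 to 1 calls, the 1 being without wild-type OGD replicate 1. miR-210-3p was called in each alternative, at 1.74 to 2.66 on the log2 CPM scale and by 2.97 on that of the deposited values, and at 2.38 to 2.77 without 1 library. The replicate block gave 389 features and 92 arm ratios and 0 genotype differences. Same-numbered libraries deviated together with correlations of 0.66, 0.17, -0.18, 0.56 and 0.44, and 4 of 5 OGD libraries correlated best with their own number. What the numbers share was not tested, and the first fit leaves any such pairing out. Signs changed with centring on all features or on those with a mean of at least 3 for miR-99a-5p (-0.69 and -0.50), miR-9b-3p (-0.73 and -0.54), miR-26a-5p (-0.58 and -0.39) and miR-132-3p (-0.38 and -0.19), with centring on all features for miR-124-3p (-0.015), miR-16-5p (-0.030) and miR-7a-5p (-0.11), and with quantile normalization for let-7i-5p (0.22) and let-7f-5p (0.16). Over 104 named features and pairs, 1075 of 1136 other values kept direction and call, 35 lost the call and 13 gained it; without 1 library, 68 of 1040 lost it, all in miR-132-5p, miR-212-5p, let-7b-3p, miR-181a-1-3p, miR-30c-5p, miR-338-5p, miR-132-3p, miR-7b-3p, miR-337-5p, miR-181d-3p, miR-30f and the miR-3066 arm ratio. Depth limits the rarest arms, such as miR-410-5p after OGD.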

Other observations

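Features named without an arm, a form of name given to entries for which only 1 mature product is listed, were set beside the others; this grouping was looked at after the values were seen. Of 194 such features, 67 were called higher and 1 lower, with a median log2 fold change of 0.59, against 209 higher and 64 lower of 1284 named with an arm, with a median of 0.29. In all scalings 41 of the 194 and 48 of the 1284 rose. Their summed share of CPM was 0.743% to 0.904% in normoxia and 1.28% to 1.86% after OGD, without overlap. miR-30f was the 1 called lower (-0.44), a call kept with 1 library left out only without normoxic replicate 1 (adjusted p up to 0.108 in the other fits, limma). With all libraries kept, its adjusted p still reached 0.0800 (limma) among the alternative settings.

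Some of these sequences also occur in other small RNAs or in many genes. miR-5121, whose sequence lies in the snoRNA gene Snord33, measured a median of 40.5 CPM in normoxia and 454 CPM after OGD, with a log2 fold change of 3.35 (limma, adjusted p = 4.96e-09); normoxic replicate 5 lay 30.3% of the way to the OGD mean. The sequence of miR-3473a is found in 146 annotated genes and that of miR-3470b in 546, and their log2 fold changes were 2.81 and 3.17. Of 25 features whose sequence occurs in another small RNA gene or in many genes, 12 were called higher and 1 lower, against 206 higher and 59 lower of 1221 whose sequence does not. Over the 370 well-measured features with a sequence, Spearman's rho of the log2 fold change was 0.04 with GC content, -0.03 with length and -0.21 with the mean log2 CPM, across features that share the same 10 libraries.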
